A study of Mus musculus with 30 samples.

Results

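The 10 genes described here are the corticosteroid receptors Nr3c1 and Nr3c2, the enzyme Hsd11b1 and 7 textbook glucocorticoid targets, Fkbp5, Tsc22d3, Zbtb16, Sgk1, Mt1, Mt2 and Errfi1. They were taken by symbol from a table of 21652 genes, each symbol matched 1 row, and all 10 passed the filter on low counts in every comparison. The table covers poly(A) RNA from iWAT (inguinal white adipose tissue) and BAT (brown adipose tissue) of male C57BL/6J mice aged 7 to 8 weeks, in 6 groups of 5 libraries. In each tissue 1 group was kept at 22 °C, 1 was moved to 6 °C for 6 h and 1 to 6 °C for 24 h. No genotype or drug differed between groups. The labels also give a housing room at 24 ± 2 °C with 12 h of light, they do not give the hour of sampling, and they do not say that the libraries of a group came from separate animals. All p-values below therefore measure the spread between libraries, which may be partly technical.

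Glucocorticoids are steroid hormones of the adrenal cortex, and corticosterone is the main one in mice. Inside the cell the hormone binds the glucocorticoid receptor, which waits in a complex with heat shock chaperones, moves to the nucleus and switches genes on or off from DNA elements bound as a dimer. In adipose tissue these hormones are known for effects on adipocyte differentiation and lipid turnover, and in rodent brown fat for restraining thermogenic genes.

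Library totals were 25.3 to 41 M assigned counts (M, 1e6). Levels below are CPM (counts per 1e6 counts of the library) scaled by trimmed-mean factors over all 30 libraries, and levels of different genes are compared only in FPKM, which divides by gene length. The sum of 7 brown adipocyte markers was 13493 to 28074 CPM in the BAT libraries and 183 to 6289 CPM in iWAT, so the tissue labels and the markers went together. The sum of 10 skeletal muscle markers was 272 to 9102 CPM in BAT at 22 °C, 9.45 to 1653 at 6 h and 2.18 to 4757 at 24 h. It was 1.85 to 7.9 CPM in the iWAT libraries except replicate 2 at 22 °C, which had 3456 CPM. Results that turn on the 4 libraries above 3000 CPM are given with and without them.

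Per unit of length, Hsd11b1 and the metallothioneins had the highest means of the 10 genes at 22 °C and Nr3c2 or Fkbp5 the lowest. In iWAT at 22 °C the means were 57.6 ± 5.72 FPKM for Hsd11b1, 46.3 ± 7.41 for Mt1, 41.1 ± 14.6 for Mt2, 32.6 ± 1.88 for Nr3c1 and 30.5 ± 5.78 for Tsc22d3 (SD, n = 5 throughout). Errfi1 followed at 11.8 ± 0.629 FPKM, then Sgk1 at 11 ± 2.98, Zbtb16 at 8.56 ± 2.85, Fkbp5 at 4.83 ± 1.31 and Nr3c2 at 2.44 ± 0.212. In that order, only the steps from Tsc22d3 to Errfi1 and from Fkbp5 to Nr3c2 had no overlap between libraries. In BAT at 22 °C, Mt1 (68.9 ± 9.34 FPKM) and Mt2 (61.6 ± 15) came first, without overlap with Hsd11b1 (25.6 ± 2.85), and Nr3c2 (1.42 ± 0.137), Zbtb16 (1.38 ± 0.39) and Fkbp5 (0.859 ± 0.246) came last with overlapping ranges. In the cold the mean of Sgk1 passed that of Hsd11b1 in BAT (30.5 ± 1.45 against 28 ± 4.66 FPKM at 6 h, 24.5 ± 3.08 against 21.7 ± 6.78 at 24 h), and that of Tsc22d3 passed Mt2 in iWAT at 24 h (33.6 ± 6.18 against 26.2 ± 4.59). The libraries of these pairs overlapped.

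**Figure D1:**
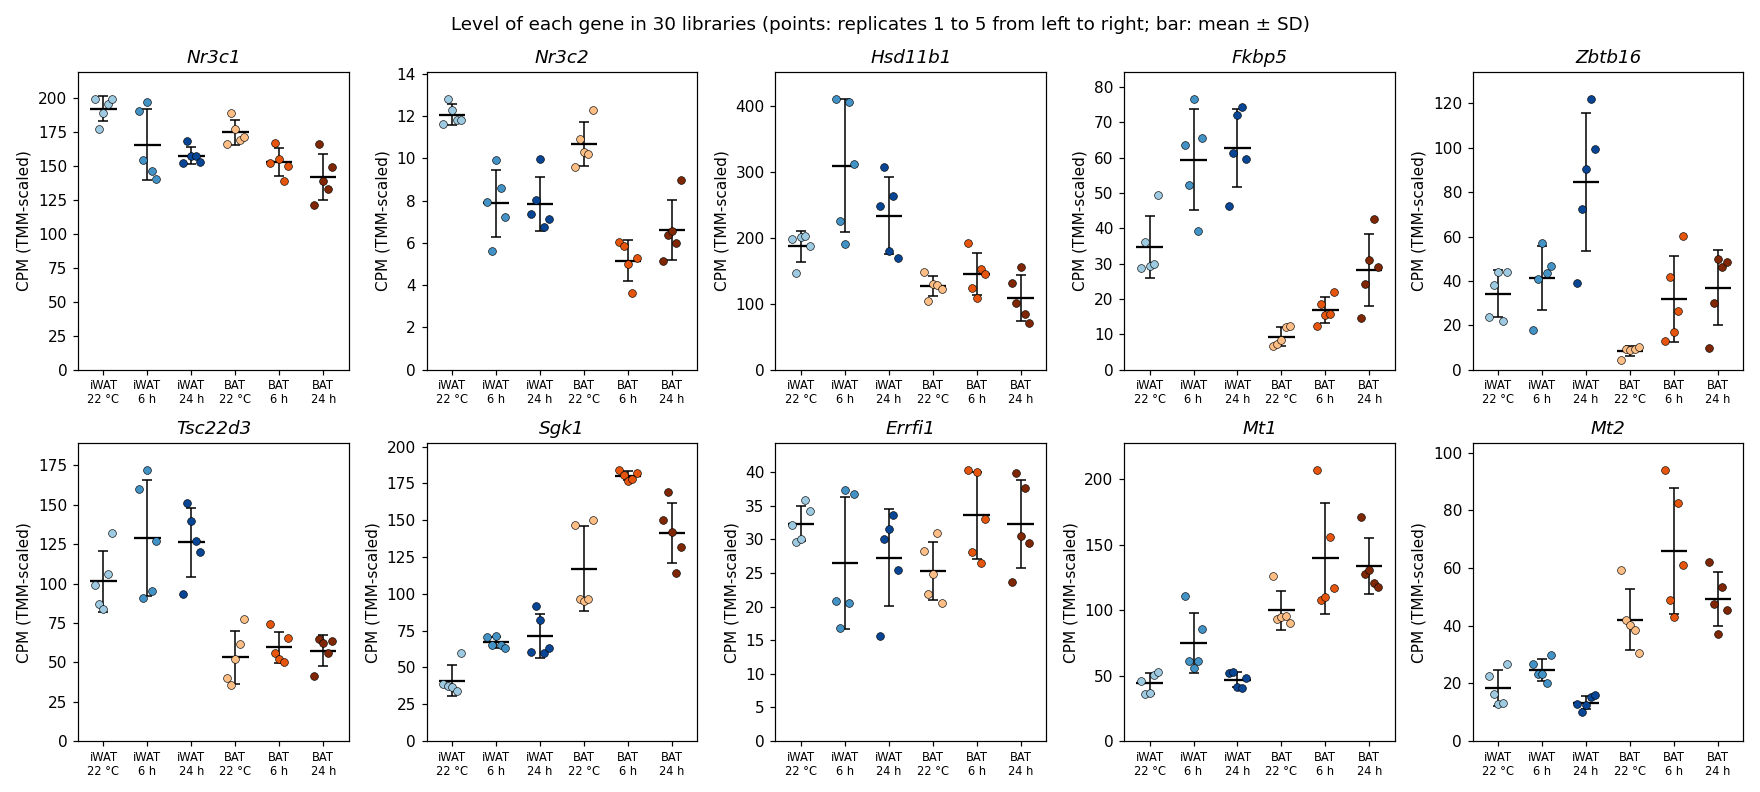
CPM of each gene in the 30 libraries. Points are single libraries (replicates 1 to 5 from left to right), the horizontal bar is the mean and the whiskers are 1 SD. Within each tissue every Nr3c2 point at 6 °C lies below every point at 22 °C, and in BAT the Sgk1 points at 6 h (177 to 184 CPM) lie above all others.

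Both receptor genes were called lower in the cold, Nr3c2 at 6 h and 24 h and Nr3c1 at 24 h, in each tissue. Nr3c2 encodes the mineralocorticoid receptor, which also binds corticosterone. In iWAT it was 11.6, 12.8, 12.3, 11.8 and 11.8 CPM at 22 °C, 7.95, 5.63, 9.92, 8.61 and 7.22 at 6 h and 7.38, 8.01, 9.95, 6.76 and 7.11 at 24 h. Every cold library lay below every 22 °C library. The log2 fold change was -0.64 ± 0.14 (approximate SE) at 6 h and -0.64 ± 0.14 at 24 h, with adjusted p = 0.0079 and 0.0055 by edgeR's quasi-likelihood test.

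In BAT, Nr3c2 fell at both times as well. Its libraries held 9.57, 10.9, 10.3, 10.2 and 12.3 CPM at 22 °C, 6.05, 5.85, 4.99, 3.62 and 5.28 at 6 h and 5.12, 6.39, 6.58, 5.97 and 8.96 at 24 h. Neither cold group overlapped the 22 °C group, and the mean at 6 h was the lower of the pair. The log2 change was -1.06 ± 0.16 at 6 h (edgeR adjusted p = 0.00015) and -0.71 ± 0.16 at 24 h (0.0034). The step from 6 h to 24 h, 0.35 ± 0.16, was not called (edgeR adjusted p = 0.15). Nor was the difference between the BAT and iWAT responses at 6 h, -0.43 ± 0.21 (0.19).

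Nr3c1, the gene of the glucocorticoid receptor itself, had smaller fitted changes. In iWAT it was 199, 177, 189, 195 and 199 CPM at 22 °C, 190, 154, 197, 146 and 140 at 6 h and 152, 168, 157, 157 and 153 at 24 h. The 24 h libraries all lay below the 22 °C libraries, while 2 of the 6 h libraries lay among them. In BAT it was 166, 189, 177, 169 and 171 CPM at 22 °C, 152, 167, 155, 139 and 150 at 6 h and 121, 166, 139, 133 and 149 at 24 h. Here too the 24 h libraries did not reach above the lowest 22 °C library, and 1 of the 6 h libraries did.

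Nr3c1 fell at 24 h in both tissues, by 0.30 ± 0.10 on the log2 scale in iWAT and 0.32 ± 0.08 in BAT (edgeR adjusted p = 0.034 and 0.011). At 6 h the values were -0.24 ± 0.10 in iWAT and -0.21 ± 0.08 in BAT, and neither was called (edgeR adjusted p = 0.082 and 0.08). The iWAT call at 24 h did not hold without replicate 1, 3, 4 or 5 at 22 °C or replicate 1, 4 or 5 at 24 h (adjusted p = 0.0549 to 0.0754). Leaving out iWAT replicate 1 or 3 at 6 h brought the 6 h value to adjusted p = 0.0192 to 0.0455, and in BAT leaving out replicate 2 at 6 h or at 24 h brought it to 0.0455 to 0.047. The iWAT call at 24 h was also absent with no filter on low counts (0.0614). Upper-quartile factors called the 6 h values in both tissues (0.0367 and 0.0434), limma on FPKM the iWAT one (0.00525 to 0.00562) and the fit of only the 2 groups the BAT one (0.0483).

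The mean ratio of the receptors' levels was higher in the cold groups. The ratio of Nr3c1 to Nr3c2 in FPKM was 13.4 ± 1.16 in iWAT at 22 °C, 18.1 ± 3.47 at 6 h and 17.2 ± 2.34 at 24 h. In BAT it was 13.9 ± 1.26, 25.5 ± 4.21 and 18.5 ± 2.93. At 6 h the BAT libraries ranged from 21.2 to 32.4 and did not overlap the range at 22 °C, 11.7 to 14.6. In iWAT the range at 6 h, 14.3 to 23, overlapped that at 22 °C, 11.6 to 14.5. At 24 h the ranges, 13.3 to 19.6 in iWAT and 14 to 21.9 in BAT, overlapped those at 22 °C in both tissues. The ratio itself was not tested.

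Some progenitor, endothelial and macrophage markers were called lower in cold iWAT, and most brown adipocyte markers higher. The sum of 10 adipose progenitor and fibroblast markers ranged from 2604 to 4810 CPM at 22 °C, 1687 to 2910 at 6 h and 1524 to 2396 at 24 h, and 5 and 3 of the 10 were called lower at 6 h and 24 h, where 10.1% of all genes were called lower at each time. Of 10 endothelial markers 5 and 6 were called lower (sums of 395 to 705, 354 to 467 and 393 to 502 CPM), and of 10 macrophage markers 4 and 0 (328 to 805, 293 to 576 and 369 to 578 CPM). None of these 30 markers was called higher in iWAT. Of the 7 brown adipocyte markers 5 were called higher at both times, with median log2 changes of 2.52 and 2.74 (sums of 183 to 1342, 834 to 6289 and 3306 to 5484 CPM), where 12.9% and 12.8% of all genes were called higher. Of 6 general adipocyte markers 1 was called higher at each time (22007 to 30717, 26686 to 40208 and 24706 to 32767 CPM).

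In BAT, where Nr3c2 and Nr3c1 were called lower too, the stromal markers were called in both directions. Progenitor sums were 725 to 1217 CPM at 22 °C, 524 to 828 at 6 h and 699 to 885 at 24 h, with 0 of 10 called at 6 h and 1 higher and 2 lower at 24 h. Of the endothelial markers 1 was called higher and 1 lower at 6 h, and 1 and 2 at 24 h (651 to 845, 704 to 909 and 713 to 855 CPM). Of the macrophage markers 1 and then 2 were called higher and 0 lower (146 to 242, 150 to 214 and 159 to 381 CPM). Brown adipocyte markers were called higher for 5 of 7 at both times (13493 to 17029, 20454 to 28074 and 19937 to 23426 CPM). Over all genes in BAT, 12.5% were called higher and 10.2% lower at 6 h, and 12.8% and 10.4% at 24 h. The part of these markers in the fall of Nr3c1 and Nr3c2 was not tested. In bulk tissue, fewer cells of a type and less RNA per cell cannot be told apart.

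Hsd11b1 encodes the reductase that regenerates active glucocorticoid from its inert keto form inside cells. In iWAT it was 198, 147, 202, 203 and 188 CPM at 22 °C, 411, 226, 191, 407 and 312 at 6 h and 249, 307, 181, 264 and 169 at 24 h. The 6 h libraries were spread widely, with 4 above the whole 22 °C group and 1 inside it. At 24 h 3 libraries lay above it and 2 inside it. Its log2 change came to 0.69 ± 0.21 at 6 h, called by edgeR (adjusted p = 0.026), and 0.30 ± 0.20 at 24 h (0.31). The 6 h call did not hold without replicate 1 or 2 at 22 °C or replicate 1, 4 or 5 at 6 h (adjusted p = 0.0507 to 0.0687). Replicate 2 at 22 °C, the lowest, is the muscle-rich iWAT library, and without it the change was 0.62 (adjusted p = 0.0687). On FPKM limma gave 0.40 and no call (0.0955 to 0.0974).

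BAT had less Hsd11b1 and no called change. Its levels were 148, 105, 130, 128 and 123 CPM at 22 °C, 193, 124, 109, 153 and 146 at 6 h and 132, 102, 156, 84.1 and 70.5 at 24 h. All 3 groups overlapped. The log2 changes were 0.18 ± 0.18 at 6 h and -0.24 ± 0.18 at 24 h (edgeR adjusted p = 0.53 and 0.38). From 6 h to 24 h it was -0.42 ± 0.18 (0.15), which passed without replicate 3 at 24 h (0.0427).

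Of the targets, Fkbp5 rose in both tissues and at both times. It encodes a co-chaperone of the receptor complex that lowers the receptor's affinity for hormone, a negative feedback. In iWAT it was 28.8, 36.1, 29.3, 30 and 49.3 CPM at 22 °C, 63.6, 52.2, 76.6, 39.2 and 65.5 at 6 h and 46.4, 61.3, 72.1, 74.2 and 59.7 at 24 h. Replicate 5 at 22 °C was the only control library to reach into the cold ranges. The fitted log2 change was 0.75 ± 0.19 at 6 h and 0.84 ± 0.19 at 24 h (edgeR adjusted p = 0.013 and 0.0057). At 6 h the call was absent from limma on log2(FPKM + 1) and log2(FPKM + 0.1), where the change was 0.44 and 0.50 (adjusted p = 0.0746 and 0.0705).

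In BAT, Fkbp5 started from a lower level and its mean was highest at 24 h. It was 6.76, 7.37, 8.32, 12.1 and 12.4 CPM at 22 °C, 12.4, 18.7, 15.4, 15.9 and 21.9 at 6 h and 14.7, 24.3, 31.1, 42.6 and 29 at 24 h. No cold library fell below a 22 °C library, though at 6 h the lowest sat just above the highest control. On the log2 scale Fkbp5 changed by 0.83 ± 0.25 at 6 h and 1.58 ± 0.25 at 24 h (edgeR adjusted p = 0.023 and 0.00024), the second a 2.98-fold rise. The 6 h call did not hold without replicate 1, 2 or 3 at 22 °C or replicate 2 or 5 at 6 h (adjusted p = 0.0506 to 0.073), nor in limma on log2(FPKM + 1) (0.0809).

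The later step in Fkbp5, 0.75 ± 0.24 from 6 h to 24 h in BAT, lay at the threshold in edgeR and was not called (adjusted p = 0.0503). It passed in DESeq2 (0.0414), with upper-quartile factors (0.047), with a filter of 1 CPM (0.0479), with all 30 libraries in the fit (0.0331) and without replicate 5 at 22 °C, replicate 5 at 6 h or replicate 1 at 24 h (0.0114 to 0.0486).

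Zbtb16, a zinc finger transcription factor also called PLZF, had the widest relative range of the 10 genes over the 30 libraries. In BAT it was 4.36, 9.22, 8.86, 9.53 and 10.3 CPM at 22 °C, 13.1, 41.8, 17.1, 26.4 and 60.4 at 6 h and 10, 30.3, 49.9, 46.2 and 48.7 at 24 h. Every 6 h library exceeded every 22 °C library, and at 24 h all but replicate 1 did. On the log2 scale this was a change of 1.89 ± 0.44 at 6 h and 2.11 ± 0.44 at 24 h (edgeR adjusted p = 0.0051 and 0.0023).

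In iWAT the rise of Zbtb16 was seen at 24 h. The libraries held 23.6, 38.2, 44, 22.1 and 43.9 CPM at 22 °C, 18.1, 41.1, 57.2, 43.8 and 46.7 at 6 h and 39.1, 72.5, 90.6, 122 and 99.4 at 24 h. The 6 h group spanned the 22 °C group, whereas 4 of the 24 h libraries exceeded all of the 22 °C libraries. The fitted change on the log2 scale was 0.24 ± 0.31 at 6 h (edgeR adjusted p = 0.58) and 1.28 ± 0.31 at 24 h (0.0086). Between 6 h and 24 h it was 1.04 ± 0.31, not called after adjustment (edgeR adjusted p = 0.27).

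Whether the 6 h response of Zbtb16 differed between tissues was tested directly. The BAT response exceeded the iWAT response by 1.64 ± 0.56 on the log2 scale, which edgeR did not call (adjusted p = 0.061) and DESeq2 did (0.0415). It passed in edgeR without iWAT replicate 4 at 22 °C, iWAT replicate 3 at 6 h, BAT replicate 1 at 6 h or BAT replicate 1 at 24 h (adjusted p = 0.0271 to 0.04).

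Tsc22d3, also called GILZ, encodes a leucine zipper protein known for the anti-inflammatory action of glucocorticoids. It was called in no cold comparison. In iWAT its range was 83.8 to 132 CPM at 22 °C (median 98.9), 90.7 to 172 at 6 h (median 127) and 93.2 to 151 at 24 h (median 127). In BAT it was 35.7 to 77.3, 50.2 to 74.1 and 41 to 64.7 CPM. All cold groups overlapped their controls. The 95% intervals of the log2 change against 22 °C were -0.04 to 0.69 in iWAT at 6 h, -0.07 to 0.66 in iWAT at 24 h, -0.22 to 0.50 in BAT at 6 h and -0.27 to 0.45 in BAT at 24 h.

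**Figure D2:**
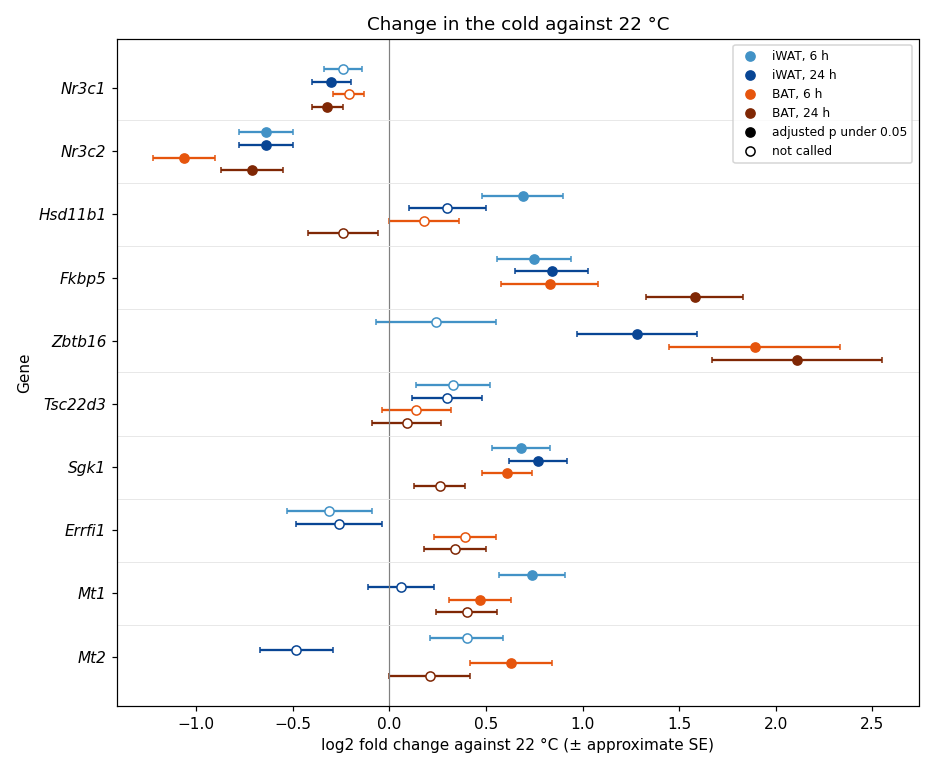
Log2 fold change against 22 °C for each gene, with 1 approximate SE, in iWAT and BAT at 6 h and 24 h. Filled points passed an adjusted p under 0.05 in edgeR. Nr3c2 lies left of 0 and Fkbp5 right of 0 in all 4 comparisons with filled points, and Tsc22d3 and Errfi1 have open points throughout.

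Sgk1 encodes a serine/threonine kinase, induced by both corticosteroid receptors, that acts on ion channels and transporters. In iWAT it was 38.6, 37.1, 36.4, 33.9 and 59.6 CPM at 22 °C, 70.9, 65.4, 71.2, 65 and 62.9 at 6 h and 60.2, 92, 82, 59.5 and 63.1 at 24 h. The 6 h libraries were closely grouped and all lay above the 22 °C group, and at 24 h replicate 4 fell marginally below the highest control. The log2 change was 0.68 ± 0.15 at 6 h and 0.77 ± 0.15 at 24 h (edgeR adjusted p = 0.0079 and 0.0027).

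In BAT the rise of Sgk1 was called at 6 h. The values were 147, 96.5, 95.4, 96.2 and 150 CPM at 22 °C, 184, 181, 177, 178 and 182 at 6 h and 150, 169, 142, 114 and 132 at 24 h. The 6 h libraries were closely grouped and lay above all of the other BAT libraries. The 22 °C libraries formed a low set of 3 and a high set of 2, and the 24 h libraries overlapped them. The log2 differences of Sgk1 were 0.61 ± 0.13 at 6 h (edgeR adjusted p = 0.0034) and 0.26 ± 0.13 at 24 h (0.18), and without replicate 5 at 22 °C the 24 h value reached adjusted p = 0.0488. From 6 h to 24 h it was -0.35 ± 0.13, with no overlap between the groups, not called by edgeR (adjusted p = 0.09) and called by DESeq2 (0.0433). Without replicate 2 at 24 h, or with only the 2 groups in the fit, edgeR called it too (0.0454 and 0.0289).

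Mt1 and Mt2 encode metallothioneins, small zinc-binding and copper-binding proteins induced by glucocorticoids and, through the factor Mtf1, by zinc. In iWAT, Mt1 was 45.8, 35.6, 36.5, 50.6 and 52.9 CPM at 22 °C, 111, 61.2, 56.2, 61.2 and 85.6 at 6 h and 51.8, 52.8, 41, 40.7 and 47.9 at 24 h. All of the 6 h libraries lay above both other groups, which overlapped each other. The log2 differences of Mt1 were 0.74 ± 0.17 at 6 h (edgeR adjusted p = 0.0096) and 0.06 ± 0.17 at 24 h (0.83). From 6 h to 24 h the log2 difference of Mt1 was -0.68 ± 0.17, not called by edgeR (adjusted p = 0.2) and called by DESeq2 (0.0291).

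The iWAT values of Mt2 were 22.5, 16.4, 12.8, 13.3 and 26.8 CPM at 22 °C, 26.8, 23.4, 23.1, 20.2 and 29.8 at 6 h and 12.9, 10.1, 12.6, 15.1 and 15.9 at 24 h. Its 6 h libraries all lay above the 24 h libraries, and the 22 °C group overlapped both. The log2 changes against 22 °C were 0.40 ± 0.19 at 6 h and -0.48 ± 0.19 at 24 h (edgeR adjusted p = 0.14 and 0.081). Leaving out replicate 5 at 22 °C brought the first to 0.0359, and leaving out replicate 3 or 4 at 22 °C brought the second to 0.0395 to 0.041, and limma on FPKM called the second too (0.04 to 0.0405). The step from 6 h to 24 h, -0.88 ± 0.19, was not called by edgeR (adjusted p = 0.15) and was called by DESeq2 (0.00511).

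BAT held more of both metallothioneins. Mt1 was 126, 93.4, 94.8, 95.3 and 90.1 CPM at 22 °C, 207, 108, 110, 156 and 117 at 6 h and 171, 128, 131, 121 and 118 at 24 h. Mt2 was 59.4, 41.9, 40.4, 38.4 and 30.4 CPM at 22 °C, 93.9, 48.8, 43.1, 82.4 and 61 at 6 h and 62.2, 47.6, 37.1, 53.4 and 45.3 at 24 h. Replicate 1 was the highest library of Mt1 and Mt2 in each of the 3 BAT groups. Its 22 °C library alone made the cold groups overlap the controls for Mt1 at both times and for Mt2 at 6 h.

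Both metallothioneins passed the threshold in BAT at 6 h, Mt1 with a log2 change of 0.47 ± 0.16 and Mt2 with 0.63 ± 0.21 (edgeR adjusted p = 0.046 and 0.038). At 24 h the changes were 0.40 ± 0.16 and 0.21 ± 0.21 (0.084 and 0.51). The 6 h calls lay close to the threshold. Mt1 lost its call without replicate 2, 3, 4 or 5 at 22 °C, replicate 1 or 4 at 6 h or replicate 2, 3 or 4 at 24 h (adjusted p = 0.0514 to 0.114). Mt2 lost its call without replicate 2, 3, 4 or 5 at 22 °C or replicate 1, 4 or 5 at 6 h (0.0572 to 0.0988). Without the muscle-rich libraries, which include replicates 4 and 5 of BAT at 22 °C, the values were 0.40 (0.213) for Mt1 and 0.46 (0.236) for Mt2. The Mt1 call was also absent with upper-quartile factors, in limma on log2(FPKM + 1), with only the 2 groups or with all 30 libraries in the fit (0.0512 to 0.0634), and the Mt2 call with only the 2 groups (0.051). At 24 h Mt1 passed in DESeq2 (0.0374), in limma on FPKM (0.0446 to 0.0464), with only the 2 groups in the fit (0.0194) and without replicate 1 at 22 °C or replicate 1 at 6 h (0.025 to 0.0467).

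Mt2 carries a limit of its own. Of its 554 subsequences of 50 bases in the GENCODE transcripts, 45.8% are shared with other genes, Gm45774 being the gene named. Matches on either strand were pooled. The labels do not say that counting used the strand. Reads of this shared part may therefore have been counted for Mt2, for Gm45774 or for neither, and these cases cannot be told apart here. Mt1 shared 0% with any other gene. The ratio of Mt1 to Mt2 in FPKM was 1.21 ± 0.366, 1.42 ± 0.314 and 1.72 ± 0.481 in iWAT at 22 °C, 6 h and 24 h, and 1.15 ± 0.155, 1.02 ± 0.126 and 1.3 ± 0.219 in BAT.

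Promoter windows are printed for Sgk1 and Mt1, which were called higher at 6 h in both tissues, and for Mt2, which neighbours Mt1. Sgk1 and Mt1 each have a promoter window that holds the palindromic element bound by the receptor dimer. Fkbp5 was also called higher at 6 h in both tissues, but its window lacks this element and is not printed. The 250 bases before the annotated starts were read from RefSeq on GRCm38.p6, an older assembly than the GRCm39 named by the submitters, for 16 windows of 8 of the 10 genes. On both strands a script searched for the full glucocorticoid element GNACANNNTGTNC, its single arm AGAACA and the metal response element, spelled TGCACNC with a second form of TGCGCNC. Overlaps between a full element and a single arm were allowed. Of all 32851 RefSeq windows of this length, 0.387% hold the full element, 16.1% the single arm and 21.4% the metal element. Below, capitals mark the full element in Sgk1, the full element and then the metal element in Mt1, and 3 metal elements in Mt2. The Sgk1 window is chr10:21993640-21993889, plus strand, 1 of 6 for that gene and the only one of the 6 with a full element. Mt1 (chr8:94178839-94179088, plus strand) and Mt2 (chr8:94172368-94172617, plus strand) are neighbours whose starts lie 6471 bases apart.
Sgk1: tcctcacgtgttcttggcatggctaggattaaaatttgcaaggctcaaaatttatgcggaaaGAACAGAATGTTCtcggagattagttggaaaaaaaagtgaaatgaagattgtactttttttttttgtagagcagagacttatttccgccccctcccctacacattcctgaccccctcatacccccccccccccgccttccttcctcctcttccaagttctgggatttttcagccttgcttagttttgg
Mt1: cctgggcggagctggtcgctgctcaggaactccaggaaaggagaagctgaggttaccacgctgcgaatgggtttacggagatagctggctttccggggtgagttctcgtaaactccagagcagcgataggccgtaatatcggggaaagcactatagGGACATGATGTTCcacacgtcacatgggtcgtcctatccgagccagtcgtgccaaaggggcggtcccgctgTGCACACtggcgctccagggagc
Mt2: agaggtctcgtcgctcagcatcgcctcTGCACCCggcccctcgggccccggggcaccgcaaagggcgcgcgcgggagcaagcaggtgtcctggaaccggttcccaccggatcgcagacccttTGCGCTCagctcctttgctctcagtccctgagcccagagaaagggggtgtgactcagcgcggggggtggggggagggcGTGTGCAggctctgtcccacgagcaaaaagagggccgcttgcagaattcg
The full element of Sgk1, GAACAGAATGTTC, lies 188 to 176 bases before that start, and that of Mt1, GGACATGATGTTC, 94 to 82 bases before its own. The Mt1 metal element TGCACAC lies 23 to 17 bases before the start. In Mt2 the metal element TGCACCC lies 223 to 217 bases before the start. Nearer to it lie TGCGCTC, 128 to 122 bases before, and a match on the other strand, GTGTGCA, 50 to 44 bases before. Fkbp5, called higher at both times in both tissues, had neither a full element nor a single arm in its window, and neither did Errfi1 in its 2 windows. No other window of the 16, including those of Nr3c2, Hsd11b1 and Tsc22d3, held the full element. Nr3c2, called lower in the cold, and Hsd11b1 each had 1 metal element in their window, as Mt1 did. A match of letters is a description of the sequence only.

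Errfi1 encodes an inhibitor of the EGF receptor family, and edgeR called it in no cold comparison. In iWAT it was 29.6 to 35.8 CPM at 22 °C (median 32.1), 16.8 to 37.4 at 6 h (median 20.9) and 15.6 to 33.7 at 24 h (median 30.1). The iWAT controls were tightly grouped, and the cold libraries scattered to below them. In BAT it was 20.6 to 30.9, 26.5 to 40.3 and 23.7 to 39.9 CPM, with overlap at both times. The log2 changes against 22 °C were -0.31 ± 0.22 and -0.26 ± 0.22 in iWAT, and 0.39 ± 0.16 and 0.34 ± 0.16 in BAT, of which DESeq2 called the first (adjusted p = 0.0481). The difference between the tissues' 6 h responses was 0.70 ± 0.29, not called by edgeR (adjusted p = 0.12), with 0.0419 without iWAT replicate 3 at 6 h. On log2(FPKM + 1) and log2(FPKM + 0.1) limma called this difference, at 0.86 and 0.96 (adjusted p = 0.0318 and 0.0379). The medians of all genes on those scales were 0.13 and 0.19.

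Counted together, 5 of the 10 genes were called in iWAT at 6 h (4 higher, 1 lower), where 23% of 13689 genes were called, 12.9% higher and 10.1% lower. At 24 h it was again 5 (3 higher, 2 lower), against 23% of all genes, 12.8% higher and 10.1% lower. In BAT, 6 were called at 6 h (5 higher, 1 lower), against 22.7% of 13090 genes, 12.5% higher and 10.2% lower. At 24 h it was 4 (2 higher, 2 lower), against 23.1%, 12.8% higher and 10.4% lower. Without BAT replicate 2 or replicate 3 at 22 °C the BAT count at 6 h was 3. The median log2 change of the 10 genes was 0.36 and 0.18 in iWAT and 0.43 and 0.23 in BAT at 6 h and 24 h, and that of all genes was -0.03, -0.04, -0.01 and -0.01. Groups did not overlap for 3 genes in iWAT at 6 h, 2 at 24 h, 4 in BAT at 6 h and 3 at 24 h, against 9.2%, 16.7%, 16.1% and 18.3% of all genes. The 10 genes were chosen with earlier results of these data known. Their counts beside the shares of all genes are therefore a description and not a test.

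Between 6 h and 24 h, edgeR called 0 of the 10 genes in iWAT, where it called 0.00731% of all genes, a single one. At an unadjusted p under 0.05 there were 3 of the 10 and 1351 of all genes, and DESeq2 called 2 of the 10, Mt1 and Mt2. In BAT it called 0 of the 10, against 13% of all genes, with 4 of the 10 at an unadjusted p under 0.05, and DESeq2 called 2, Fkbp5 and Sgk1.

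The tissues differed in most of these genes, as they did in most genes of the table. At 22 °C, 7 of the 10 genes were called between BAT and iWAT, 3 higher and 4 lower in BAT, where 66.9% of 14089 genes were called, 32.4% higher and 34.5% lower. At 6 h it was 7 as well (3 higher, 4 lower), against 66.2%, 32.6% higher and 33.7% lower. At 24 h it was again 7 (3 higher, 4 lower), against 63.6%, 31.6% higher and 32% lower. Higher in BAT at every temperature were Sgk1 (log2 difference 1.51 ± 0.15, 1.43 ± 0.15 and 0.99 ± 0.15 at 22 °C, 6 h and 24 h), Mt1 (1.17 ± 0.18, 0.90 ± 0.18 and 1.51 ± 0.18) and Mt2 (1.20 ± 0.21, 1.42 ± 0.21 and 1.89 ± 0.22). The largest edgeR adjusted p of these 9 values was 8.1e-05, for Mt1 at 6 h.

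Lower in BAT at every temperature were Fkbp5 (-1.88 ± 0.23, -1.82 ± 0.23 and -1.15 ± 0.22), Tsc22d3 (-0.93 ± 0.20, -1.12 ± 0.20 and -1.13 ± 0.20) and Hsd11b1 (-0.57 ± 0.21, -1.09 ± 0.21 and -1.10 ± 0.21). The largest edgeR adjusted p of these 9 was 0.019, for Hsd11b1 at 22 °C. Known targets of the same receptor lay on opposite sides of the tissue comparison. Zbtb16 was lower in BAT at 22 °C (-2.02 ± 0.41, edgeR adjusted p = 9.2e-05) and 24 h (-1.19 ± 0.39, 0.0093), and at 6 h the difference was -0.38 ± 0.39 (0.39).

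For Nr3c2 edgeR called the tissue difference at 6 h, lower in BAT (-0.61 ± 0.15, edgeR adjusted p = 0.00086), with -0.18 ± 0.15 at 22 °C and -0.25 ± 0.15 at 24 h (0.29 and 0.15, not called). At 24 h it was called at -0.38 without BAT replicate 5, a muscle-rich library (adjusted p = 0.027), and at -0.38 without all 4 muscle-rich libraries (0.0339). For Nr3c1 the differences were -0.14 ± 0.09, -0.12 ± 0.09 and -0.15 ± 0.09, not called (0.17, 0.24 and 0.13), and without BAT replicate 2 the 24 h value was called (0.0193). These calls depended on the scaling: on log2(FPKM + 1), where the median of all genes was itself -0.34 at 22 °C, limma called Nr3c1 (-0.71), Nr3c2 (-0.51) and Errfi1 (-0.86) lower in BAT at 22 °C. With upper-quartile factors, where that median was -0.23, edgeR called the same 3 genes lower at 22 °C (-0.33, -0.37 and -0.54). Both settings also called Nr3c1 lower at 6 h and 24 h and Nr3c2 lower at 24 h. For Errfi1 edgeR gave -0.35 ± 0.20 at 22 °C, 0.34 ± 0.20 at 6 h and 0.24 ± 0.20 at 24 h, not called (0.12, 0.14 and 0.3), and the 6 h value was called without iWAT replicate 3 or 5 (0.0355 to 0.0423).

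**Figure D3:**
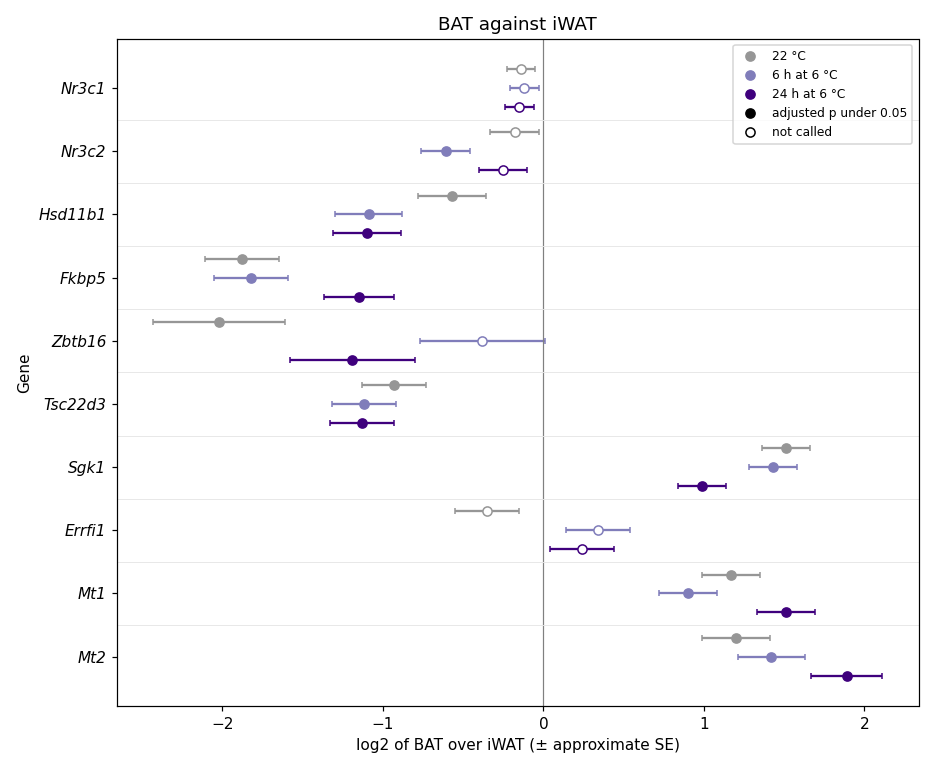
Log2 difference of BAT minus iWAT for each gene at 22 °C and after 6 h and 24 h at 6 °C, with 1 approximate SE. Filled points passed an adjusted p under 0.05 in edgeR. Sgk1, Mt1 and Mt2 lie right of 0, Hsd11b1, Fkbp5 and Tsc22d3 left of 0, and the point of Zbtb16 at 6 h is open near -0.38.

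In the test of the responses themselves, edgeR called 0 of the 10 genes as responding differently in BAT and iWAT at 6 h and 0 at 24 h, against 9.4% and 7.81% of all genes. At an unadjusted p under 0.05 there were 3 and 4. DESeq2 called 1 at 6 h, Zbtb16, and 0 at 24 h. Without iWAT replicate 3 at 6 h edgeR called 2 at 6 h, Zbtb16 and Errfi1, and without iWAT replicate 5 at 22 °C it called 1 at 24 h, Sgk1 (-0.69 in place of -0.52 ± 0.21, adjusted p = 0.0286).

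How far the targets moved together was looked at over the 15 libraries of each tissue. These correlations share libraries and the temperature groups, so they are given without a test. Fkbp5 and Zbtb16 had r = 0.59 in iWAT and 0.90 in BAT, and 0.43 and 0.84 after group means were removed. Fkbp5 and Tsc22d3 had 0.78 and 0.47, and 0.78 and 0.58 within groups, although only Fkbp5 was called. For Fkbp5 and Sgk1 the values were 0.85 in iWAT and 0.26 in BAT, and 0.53 and -0.24 within groups. For Fkbp5 and Mt1 they were 0.10 and -0.66 within groups. Mt1 ran against Zbtb16 within groups in both tissues (-0.66 and -0.73), and with Mt2 at 0.35 and 0.85. In every BAT group, replicate 1 had the lowest Fkbp5 and Zbtb16 and the highest Mt1 and Mt2. How far the BAT correlations rest on that replicate was not tested. Nr3c1 and Nr3c2 had 0.72 and 0.69 over all libraries, and 0.38 and 0.59 within groups.

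**Figure D4:**
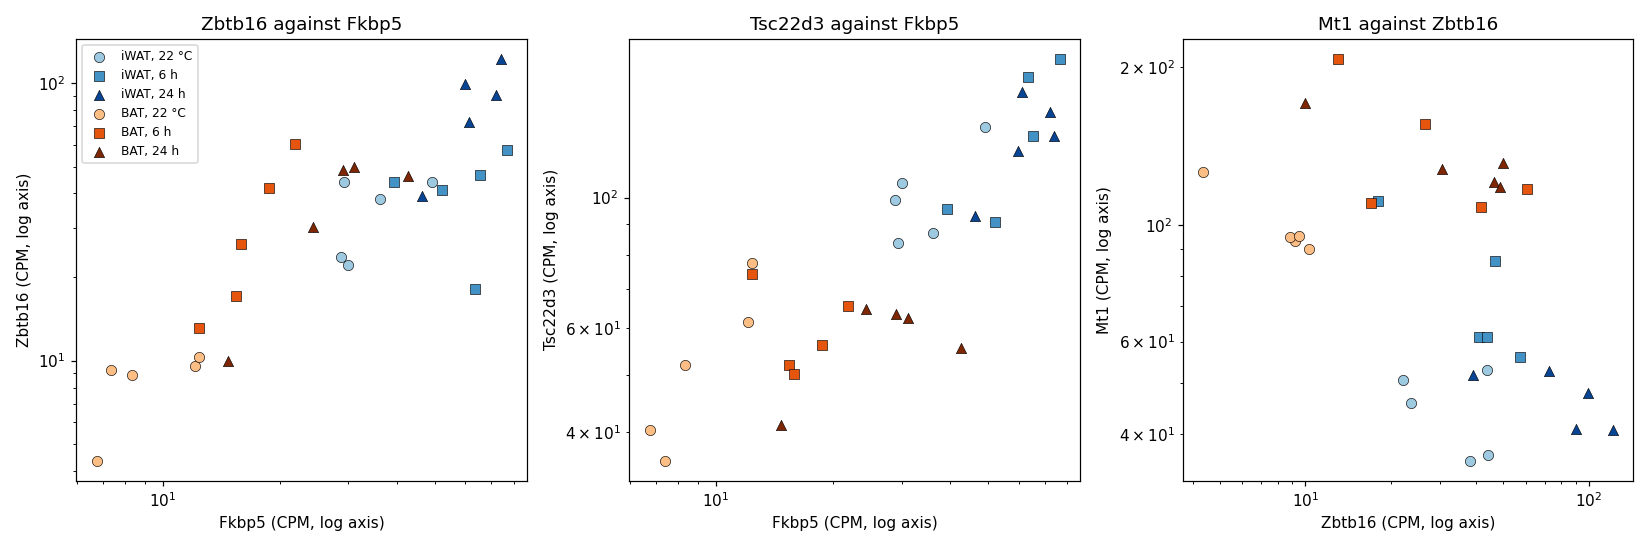
Zbtb16 against Fkbp5, Tsc22d3 against Fkbp5 and Mt1 against Zbtb16 in 30 libraries, all in CPM on log axes. Colours and shapes mark the 6 groups. In the right panel the BAT library with the highest Mt1 of each group is the one with the lowest Zbtb16, at 4.36, 13.1 and 10 CPM of Zbtb16 for 22 °C, 6 h and 24 h.

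Among 12561 genes tested in both tissues, the ones most like each member were ranked by the lower of the r over 15 iWAT and the r over 15 BAT libraries. For Fkbp5 these were Bcl2l1 (0.84), Fam107a (0.84) and Acer2 (0.79). For Tsc22d3 they were Cebpd, itself in the list of other glucocorticoid-induced genes (0.75), Trp53inp1 (0.75) and Cited2 (0.74). For Nr3c2 the leading ones were Ecm2 (0.85) and the clock gene Per3 (0.85), and for Nr3c1 they were Zeb2 (0.85), Fcho2 (0.82) and Cep170 (0.79). Zbtb16 was most like Sgms1 (0.81), Sgk1 like Atosa (0.84), Mt1 like Uqcc3 (0.87), Mt2 like Alg2 (0.71), Hsd11b1 like Mpc1 (0.77) and Errfi1 like Hs3st1 (0.67).

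A list of 24 other glucocorticoid-induced genes was read beside the 10. This list and those below were also chosen with earlier results of these data known, so their counts are a description only. In iWAT 6 were called higher and 0 lower at 6 h, and 8 and 0 at 24 h, with median log2 changes of 0.35 and 0.39. The same shares over all genes were 12.9% and 10.1% at 6 h and 12.8% and 10.1% at 24 h, with medians of -0.03 and -0.04. In BAT 4 were higher and 0 lower at 6 h and 6 and 1 at 24 h, with medians of 0.19 and 0.19, where all genes had 12.5% and 10.2%, then 12.8% and 10.4%, and a median of -0.01. The BAT count at 6 h lay near the share of all genes. Cdkn1a, a cyclin-dependent kinase inhibitor, rose in all 4 comparisons, from 9.86 ± 2.94 CPM to 43.1 ± 11.9 and 36.4 ± 2.99 in iWAT and from 50.7 ± 13.2 to 199 ± 34.1 and 178 ± 44.1 in BAT. Its log2 changes were 2.10 ± 0.20, 1.87 ± 0.20, 1.96 ± 0.19 and 1.79 ± 0.19, with edgeR adjusted p of at most 0.00031.

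Further genes of that list were called in 1 tissue or in both. In iWAT, Pdk4, a kinase that restrains pyruvate oxidation, rose by 1.66 ± 0.50 at 6 h and 2.24 ± 0.51 at 24 h, and the phosphatidate phosphatase Lpin1 by 0.69 ± 0.13 and 0.73 ± 0.13. Glutamine synthetase, Glul, rose by 0.94 ± 0.14 at 6 h, and Rgs2, a regulator of G protein signalling, by 1.84 ± 0.47 at 24 h. In BAT, the phosphatase Dusp1 rose by 1.22 ± 0.12 and 0.66 ± 0.12, the transcription factor Klf15 by 0.39 ± 0.13 and 0.76 ± 0.13, Lpin1 by 0.51 ± 0.14 at 6 h and Hif3a by 2.21 ± 0.52 at 24 h from 0.171 ± 0.0987 CPM. The single call in the other direction, Glul in BAT at 24 h (-0.35 ± 0.08), was chosen for naming after its value was seen. Whether these responses differed between tissues is given by the interaction, where edgeR called 0 of the 24 higher and 1 lower at 6 h, and 0 and 2 at 24 h.

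**Figure D5:**
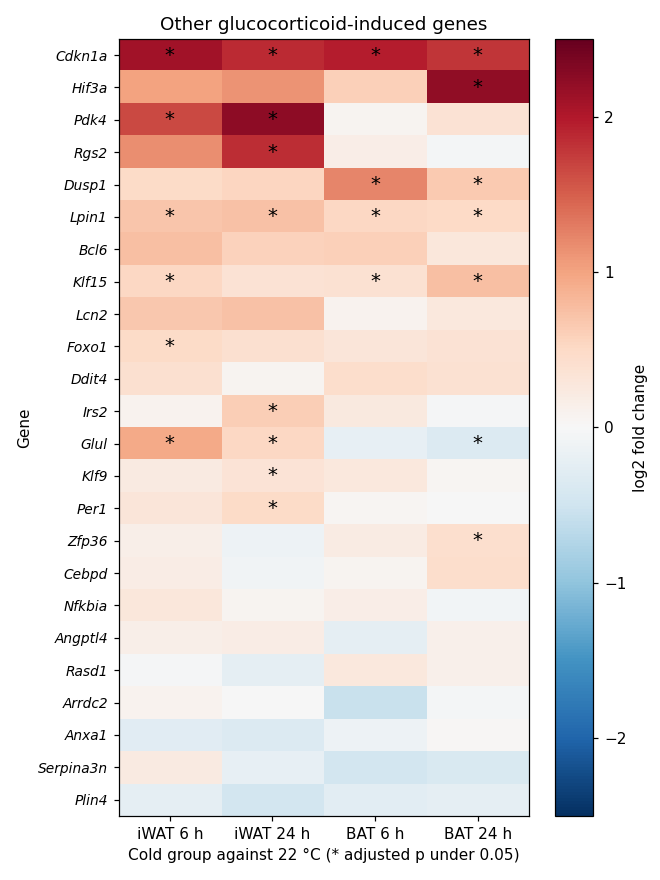
Log2 fold change against 22 °C of 24 other glucocorticoid-induced genes in the 4 cold comparisons, ordered by mean change. Colour gives the log2 change and an asterisk an edgeR adjusted p under 0.05. Cdkn1a and Lpin1 carry asterisks in all 4 columns.

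Of the receptor's chaperones and coregulators, 20 genes, most were not called in iWAT or in BAT at 24 h. In iWAT 4 were higher and 1 lower at 6 h and 6 and 1 at 24 h, and in BAT 9 and 1 at 6 h and 3 and 2 at 24 h. Over all genes 12.5% to 12.9% were higher and 10.1% to 10.4% lower in these comparisons, and the BAT count at 24 h lay near those shares. The medians were 0.20, 0.22, 0.22 and 0.06, against -0.03, -0.04, -0.01 and -0.01. Hsp90aa1, the inducible form of the chaperone that holds the receptor ready for hormone, rose by 0.48 ± 0.16 and 0.80 ± 0.17 in iWAT and by 1.65 ± 0.14 and 0.46 ± 0.13 in BAT. Its BAT level went from 459 ± 107 CPM to 1454 ± 131 and 639 ± 88.2. Hspa8, a constitutive heat shock protein, rose by 0.70 ± 0.19 and 1.08 ± 0.20 in iWAT and by 1.00 ± 0.12 in BAT at 6 h. The corepressor Nrip1 fell by 0.70 ± 0.18 and 0.76 ± 0.18 on the log2 scale in BAT, and the coactivator Ncoa3 by 0.53 ± 0.12 in iWAT at 6 h.

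Genes of steroid handling, 12 in the list, were tested for 9 in iWAT and 8 in BAT. In iWAT 1 was called higher and 3 lower at 6 h and 1 and 4 at 24 h, and in BAT 0 and 2 at both times, with medians of -0.38, -0.10, -0.07 and -0.10, where 10.1% to 10.4% of all genes were lower and 12.5% to 12.9% higher. Srd5a1, a steroid reductase that inactivates glucocorticoids among other substrates, went from 2.06 ± 0.246 CPM to 0.917 ± 0.467 and 0.58 ± 0.305 in iWAT, log2 changes of -1.18 ± 0.38 and -1.85 ± 0.39. Mrap, the accessory protein of the corticotropin receptor, rose by 0.68 ± 0.14 and 0.48 ± 0.14 in iWAT. H6pd, which supplies the cofactor of the Hsd11b1 enzyme, fell by 0.19 ± 0.06 and 0.25 ± 0.06 on the log2 scale in BAT.

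Relatives and partners of single members were counted in the same way, beside 22.7% to 23.1% of all genes called in either direction. Of the SGK family and its substrates, 7 genes, 2 were higher and 2 lower in iWAT at 6 h, 3 and 1 at 24 h, and in BAT 1 and 1, then 2 and 4. Sgk2 rose in all 4 comparisons, from 0.133 ± 0.21 CPM to 4.98 ± 5.92 and 13.4 ± 3.68 in iWAT, a start too low for a precise fold, and from 18.2 ± 6.63 to 69.6 ± 12.8 and 83.4 ± 10.8 in BAT. Ndrg1, a substrate of the Sgk1 kinase, was called lower in all 4, at -0.78 ± 0.15 and -0.79 ± 0.15 in iWAT and -0.63 ± 0.11 and -0.36 ± 0.11 in BAT.

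Of 6 metal response genes, 5 were tested in iWAT and 4 in BAT. In iWAT 0 were higher and 1 lower at 6 h and 1 and 0 at 24 h, and in BAT 2 and 1, then 0 and 1. With lists this short, 1 called gene is near the 22.7% to 23.1% of all genes called. Mtf1, the zinc sensor that drives metallothionein genes, rose by 0.46 ± 0.11 and the zinc importer Slc39a14 by 0.63 ± 0.09 in BAT at 6 h. Of 9 genes of the EGF receptor family and its ligands, 7 were tested in each tissue, with 0 higher and 1 lower in iWAT at 6 h, 1 and 0 at 24 h, and in BAT 0 and 2, then 1 and 1. Erbb4 went from 5.77 ± 1.02 CPM to 1.46 ± 0.386 and 1.7 ± 0.523 in BAT, log2 changes of -2.00 ± 0.23 and -1.78 ± 0.22.

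Clock genes, some of which respond to glucocorticoids and many of which vary with the hour, were called in both directions. Of 13, 12 were tested in each tissue, with 3 higher and 1 lower in iWAT at 6 h, 2 and 3 at 24 h, and in BAT 3 and 5, then 2 and 4, against 22.7% to 23.1% of all genes in either direction. The medians were -0.08, -0.25, -0.15 and -0.11. Bmal1 changed by 1.50 ± 0.31 and 1.37 ± 0.31 in iWAT and by 2.44 ± 0.28 and 1.33 ± 0.28 in BAT. Dbp changed by -0.40 ± 0.13 and -0.55 ± 0.13 in iWAT and by -1.30 ± 0.10 and -0.51 ± 0.10 in BAT. Circulating corticosterone also follows the hour of the day, and the part of sampling time in the values of the 10 genes was not tested.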

How the data were processed

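Poly(A) RNA was sequenced from 30 libraries in 6 groups of 5. Per the submitters' processing notes the tools were HISAT2 and HTSeq on GRCm39, with no versions; the strand setting is not given in the sources used here. The deposited counts are the authors' whole-number reads per gene. The deposited FPKM values are the authors' counts divided by gene length and library total, tested here on 17249 genes whose implied length was the same within 1e-6 in the libraries compared. Of 21652 identifiers, 21541 matched the reference names.

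Counts were fitted on the whole table with edgeR 4.0.16 (R 4.3.3; TMM factors, filterByExpr with a minimum count of 10, quasi-likelihood F test, Benjamini-Hochberg over all genes), each tissue on its own for temperature and all 30 libraries for tissue and for differences of response. A call is an adjusted p under 0.05. The SE is the log2 change over the root of F, and 95% intervals use 1.96 SE. CPM use TMM factors over 30 libraries, with SD over n = 5. Alternatives used DESeq2 1.42.0, RLE and upper-quartile factors, other filters, limma 3.58.1 on log2(FPKM + 1) and log2(FPKM + 0.1), a replicate block, other sets of libraries and leaving out each library. On simulated counts with 199 changed genes, edgeR recovered 77.3% of log2 changes of 1 for iWAT at 6 h, with 5 false calls among 139. For the difference of responses at 6 h it recovered 53.7%. Of log2 changes of 0.5 it recovered 26.9% for iWAT at 6 h, 42.4% for BAT at 6 h and 20.9% for the difference of responses. The simulation for iWAT at 6 h changed 199 of 13555 genes, while 23% of genes were called in the data. The adjusted threshold depends on that share, so these rates need not hold for the real tests.

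All 60 pairs of libraries within groups differed beyond counting noise (chi-square per degree of freedom 14 to 181). The members and lists were chosen with earlier results of these data known. Named genes are all 10 members, from each list up to 4 called genes a comparison by size of change, and for likeness the nearest genes by the lower r of the tissues.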

Additional observations from a re-analysis of the deposited data

Results flagged for a closer look

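In 60 sets of 5 libraries (10 genes in 6 groups), 5 held a library whose gap to its nearest neighbour exceeded 0.71 of the set's range, Dixon's limit. Chance flags about 1 in 20 such sets, or 3 of 60. Hsd11b1 was 147 CPM in iWAT replicate 2 at 22 °C against 188 to 203 in the others, and this is the library with 3456 CPM of muscle markers. Sgk1 was 59.6 CPM in iWAT replicate 5 at 22 °C against 33.9 to 38.6. Zbtb16 was 4.36 CPM in BAT replicate 1 at 22 °C against 8.86 to 10.3, and Mt1 was 126 CPM in the same library against 90.1 to 95.3. Mt1 was also 171 CPM in BAT replicate 1 at 24 h against 118 to 131.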

How the results depend on the processing

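Of 40 results of the 10 genes against 22 °C, 20 were called, and 14 of these kept their call under every alternative run: Nr3c2 and Sgk1 wherever called, Zbtb16 wherever called, Fkbp5 at 24 h, Mt1 in iWAT at 6 h and Nr3c1 in BAT at 24 h. The other 6 lost it somewhere, and 7 uncalled results gained one. No called result changed sign. On FPKM the median of all genes shifted to -0.15 and -0.25 in iWAT at 6 h and to -0.12 and -0.19 at 24 h (pseudocounts 1 and 0.1). Leaving out 1 library at a time gave 4 to 6 and 4 to 5 called members in iWAT at 6 h and 24 h, 0 to 0 between them, 3 to 6 and 4 to 5 in BAT, 0 to 1 between them, 7 to 7, 7 to 8 and 7 to 8 between tissues at 22 °C, 6 h and 24 h, and 0 to 2 and 0 to 1 for the difference of responses at 6 h and 24 h. Over all genes these fits called from 1525 to 4032 in iWAT at 6 h and 2274 to 3196 in BAT at 6 h. Between 24 h and 6 h the 0 called members became 2 with DESeq2 in iWAT, and in BAT 2 with DESeq2 and 1 with upper-quartile factors, the 1 CPM filter, only the 2 groups or all 30 libraries in 1 fit. For the difference of responses at 6 h the 0 became 1 with DESeq2, Zbtb16, and 1 with limma on either FPKM scale, which was Errfi1 and not Zbtb16. The cause was not tested. Without the 4 muscle-rich libraries, a choice made after seeing the data, members called were 4, 5, 4 and 4 against 22 °C (iWAT 6 h and 24 h, BAT 6 h and 24 h), and 8 in place of 7 between tissues at 24 h.

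The labels do not say whether replicate numbers pair the libraries. Same-numbered libraries of different groups had correlations from -0.79 to 0.74. Both ends came from groups of different temperature, which cannot share an animal. Between iWAT and BAT of the same temperature the mean was -0.15 at 22 °C, 0.16 at 6 h and 0.19 at 24 h. Only iWAT and BAT at 24 h had 5 of 5 libraries closest to their own number. Whether they were paired was not settled, and the main tests between tissues did not use pairing. The replicate block joined same-numbered libraries of all groups in a fit, also those of different temperature. A fit that pairs only iWAT and BAT of the same temperature was not run, so the block does not show what such pairing would give. With the replicate block, called members were 1 between BAT at 24 h and 6 h and 1 for the difference of responses at 6 h, both 0 without it (Fkbp5 and Zbtb16, edgeR adjusted p = 0.0113 and 0.00468). It also gave 7 in place of 6 in BAT at 6 h, adding Nr3c1 (0.0194), and 5 in place of 4 at 24 h, adding Mt1 (0.00681). Of the same-numbered pairs of BAT at 22 °C and 24 h, 4 of 5 had a correlation over 0.1. As to depth, all 10 genes passed the filter on low counts, and what counting error adds to the spread between libraries was not separated.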

Other observations

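Replicate 1 of BAT stood at one end for several members. In each of the 3 BAT groups it had the lowest Fkbp5, the lowest Zbtb16 and the highest Mt1 and Mt2. For Zbtb16 it had 4.36, 13.1 and 10 CPM at 22 °C, 6 h and 24 h, and for Mt1 126, 207 and 171 CPM. In iWAT, replicate 1 was the lowest for Zbtb16 in 2 of the 3 groups, at 18.1 CPM at 6 h and 39.1 at 24 h. The labels give no batch for the replicate numbers, and what these libraries share was not tested.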
